A study of Mus musculus with 6 samples.

Results

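Proteins that enter the endoplasmic reticulum (ER) are folded there by chaperones and by disulfide isomerases, and those that fail to fold are carried back to the cytosol and degraded, a route called ER-associated degradation. Membrane sensors (ATF6, IRE1 and PERK) read the load of unfolded protein and raise the genes of both machineries, the unfolded protein response. The 42 genes described here are 21 ER chaperones and disulfide isomerases (folding genes), 16 genes of the degradation machinery and 5 sensor genes, taken by name from the 55487 genes of the deposited table. The sensor genes are Atf6, Atf6b, Ern1 (IRE1), Eif2ak3 (PERK) and Xbp1, which encodes a transcription factor downstream of IRE1 and is counted with them. All 42 genes were measured by RNA-seq in RM-1, a line of mouse prostate cancer cells first transformed with ras and myc. In 3 libraries the cells had received a lentivirus that overexpresses Bhlhe22, a transcription factor of the basic helix-loop-helix family best known from neurons (Bhlhe22 cells), and in 3 libraries a blank lentivirus (vector cells). Both groups share the RM-1 background and a lentiviral vector, and the labels name neither the promoter of the vector nor whether the cells were clones. Whether replicates came from separate cultures is not in the labels, so p-values measure the spread between these libraries, which may be technical.

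The libraries held 15464709 to 25129552 counts. Bhlhe22 had 0 counts in each vector library and 8706, 14785 and 17995 counts in Bhlhe22 replicates 1, 2 and 3. FPKM, the deposited level, scales counts to gene length and to library depth. The epithelial keratin genes Krt8 and Krt18 were abundant, Krt8 at 381 to 394 FPKM in vector and 263 to 293 FPKM in Bhlhe22 cells (adjusted p = 0.0047; its part in the results was not tested) and Krt18 at 424 to 518 FPKM in all 6 libraries. Epcam was at 0.947 to 1.27 FPKM, and the prostate luminal genes Hoxb13 and Pbsn were listed at 0 in all 6. Cdh1 was at most at 0.053 FPKM, Krt5 was at 0 and Krt14 at most at 0.107 FPKM. Vim, a mesenchymal filament gene, was at 207 to 221 FPKM in vector and 158 to 179 FPKM in Bhlhe22 cells (log2 fold change -0.33, adjusted p = 0.023), and its part in the results was not tested either. Of the other mesenchymal markers Fn1 went the other way (log2 fold change 0.39). Cdh2 (-0.35) and Zeb1 (-0.21) had negative values, and neither they nor Fn1 were called (edgeR adjusted p from 0.060 to 0.50). Of the leukocyte markers Adgre1, Itgam and Cd3e were at 0, and Ptprc and Cd79a were at most at 0.0072 and 0.134 FPKM. Cd68, a lysosomal protein gene of macrophages, was at 18.4 to 20.7 FPKM in vector and 20.9 to 25.1 FPKM in Bhlhe22 cells, without overlap and without a call (adjusted p = 0.11). Because these are bulk samples, a change in RNA per cell cannot be told apart from a change in the share of cells that express a gene. Bhlhe22 replicate 1 lay farthest from its group, and its deviation followed gene length. Gene length here means the length implied by the deposited counts and FPKM. This implied length can exceed the exons of a gene, as for Syvn1 (12.6 kb against 4859 bases of annotated exons). Over the 41 tested genes described here, the Spearman correlation of gene length with its log2 difference from the other Bhlhe22 replicates was -0.62, against -0.096 to 0.25 for the 3 vector libraries measured the same way. Bhlhe22 replicates 2 and 3 gave 0.57 and 0.51, each set against a mean that holds replicate 1. Over all 14663 genes tested Bhlhe22 replicates 1, 2 and 3 gave -0.42, 0.31 and 0.35, and the vector libraries -0.065 to 0.095. These are descriptions across genes, which are not independent replicates. Median implied length was 4.53 kb for the folding genes and 6.81 kb for the tested degradation and sensor genes. The part of length in the difference between these classes was not tested. Calls that changed without Bhlhe22 replicate 1 are given beside the gene.

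In Bhlhe22 cells most sensor genes and many genes of the degradation machinery rose, while most chaperones and isomerases did not pass the test. Of 41 genes tested 17 were called, 15 higher and 2 lower (edgeR quasi-likelihood test, Benjamini-Hochberg adjusted p under 0.05 over all 14663 genes tested), where 19.6% of all genes were called, 10.4% higher and 9.28% lower. The log2 fold change was above 0 in 32 of the 41 (51.3% of all genes), and 4 were called at least 2-fold higher (2.15% of all genes). Of the 21 folding genes 4 rose, 1 fell and 16 missed the threshold, at a median log2 fold change of 0.07. Of the 15 degradation genes tested 7 rose, 1 fell and 7 missed it, at a median of 0.28. Of the 5 sensor genes 4 rose, Xbp1 among them, and 1 missed it, at a median of 0.61. The median over all genes tested was 0.01. Degradation and sensor genes together had 11 higher and 1 lower of 20, with a median of 0.30. The difference between the folding genes and the others was not tested. The 3 Bhlhe22 values lay above all vector values in 22 of the 41 genes and below them in 4, against 20.8% and 20.0% of all genes. The gene not tested was Derl3, a derlin, with 4 to 14 counts per library.

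**Figure D1:**
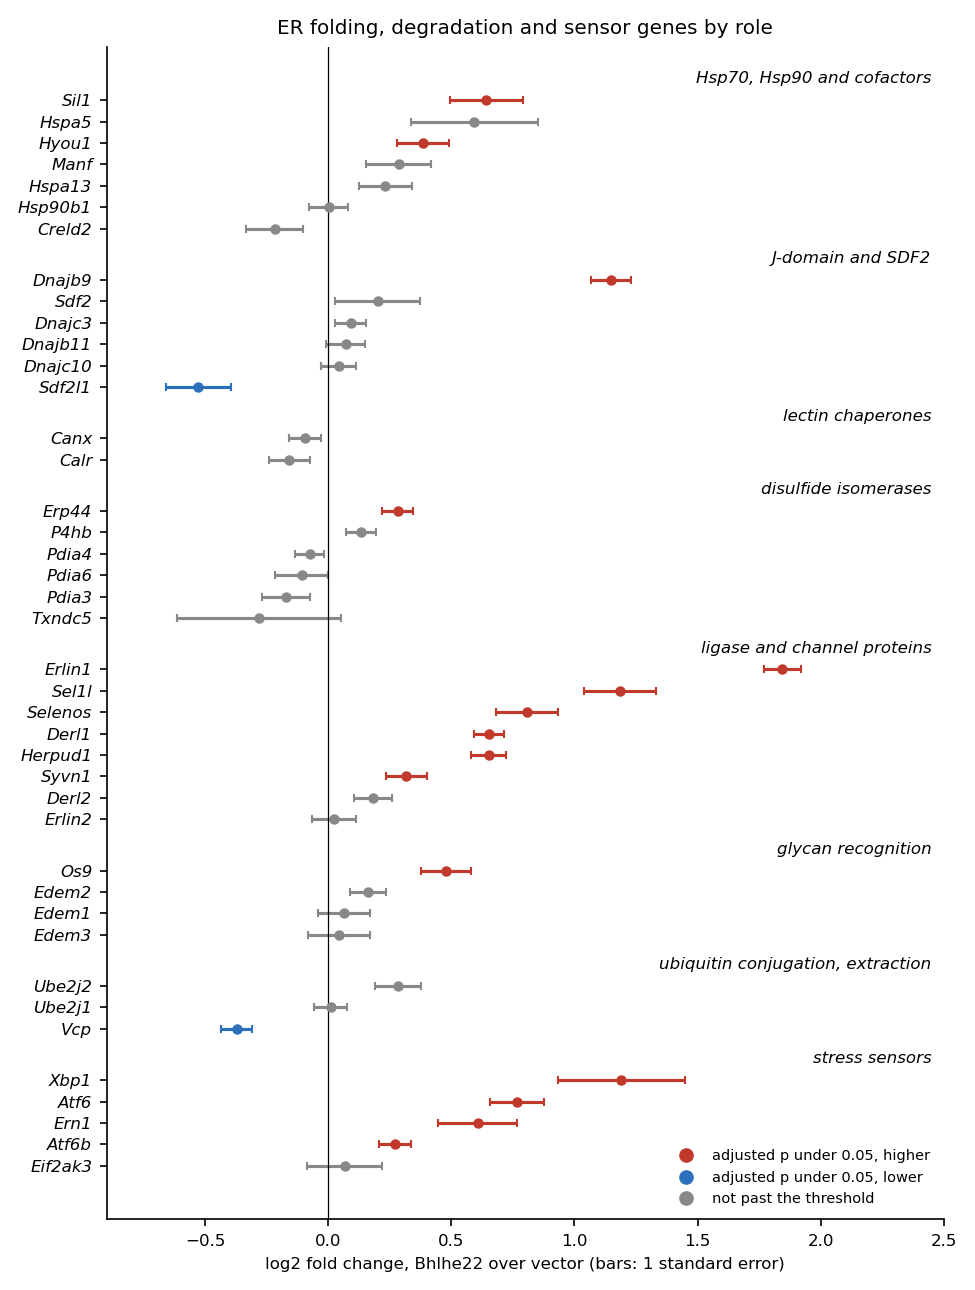
Log2 fold change of Bhlhe22 over vector cells for the 41 tested genes, grouped by role, with bars of 1 standard error and colours for genes that rose, fell or did not pass the adjusted p of 0.05. The ligase and channel proteins hold 6 higher genes of 8 and the sensors, with Xbp1 counted, 4 of 5, while none of the lectin chaperones and 1 of 6 disulfide isomerases passed.

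Summed levels weigh abundant genes most. The folding genes summed to 6841, 6941 and 6713 CPM (counts scaled to a common library size after TMM scaling) in vector replicates 1, 2 and 3 and to 7469, 7403 and 6731 CPM in Bhlhe22 replicates 1, 2 and 3, and the groups overlapped. The degradation genes summed to 1849, 1808 and 1824 CPM in vector cells and 2419, 2544 and 2518 CPM in Bhlhe22 cells. The sensor genes summed to 720, 750 and 723 CPM against 976, 1344 and 1228 CPM. The degradation and sensor sums did not overlap between groups, and the sensor sum was lowest among Bhlhe22 cells in replicate 1. The mean log2(CPM + 1), which weighs each tested gene alike, was 7.47, 7.49 and 7.50 for the folding genes in vector cells and 7.69, 7.59 and 7.52 in Bhlhe22 cells. For the degradation and sensor genes it was 6.62, 6.62 and 6.61 against 6.99, 7.13 and 7.08. On this scale neither set overlapped between groups, and the folding means lay closer together.

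**Figure D2:**
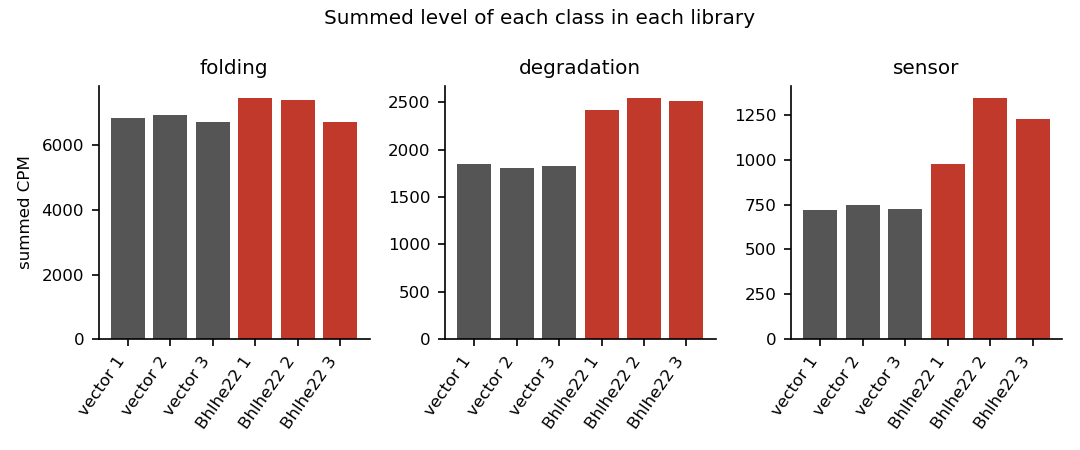
Summed CPM of the folding, degradation and sensor genes in each of the 6 libraries, as bars from 0. Degradation sums run from 1808 to 1849 CPM in vector and from 2419 to 2544 CPM in Bhlhe22 libraries, while the folding sums of the groups overlap.

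Leaving out 1 library changed how many genes passed but not which class had the larger share of higher genes. The number of higher genes was 7, 7 and 8 without vector replicate 1, 2 or 3, and 18, 9 and 11 without Bhlhe22 replicate 1, 2 or 3. Over all genes tested the higher calls moved alike, to 715, 781 and 794 without vector replicate 1, 2 or 3. Without Bhlhe22 replicate 1, 2 or 3 they numbered 2345, 908 and 1182, against 1520 with all libraries. The folding genes had 1, 1, 2, 5, 1 and 3 higher in these 6 fits, and the degradation and sensor genes 6, 6, 6, 13, 8 and 8. Leaving out Bhlhe22 replicate 1 gave 6 lower genes, and each of the other 5 fits gave 1. Over all genes tested the lower calls numbered 2337 without Bhlhe22 replicate 1 and 633 to 1045 in the other 5 fits. Erlin1, Sel1l, Dnajb9, Selenos, Derl1, Herpud1, Atf6 and Vcp kept their calls in all 6 fits.

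Among the folding genes the central chaperones were not called. Hspa5 encodes BiP, the Hsp70 of the ER lumen that also holds the sensors inactive. It had 908, 962 and 570 CPM in vector replicates 1, 2 and 3 and 1082, 1634 and 962 CPM in Bhlhe22 replicates 1, 2 and 3. Vector replicate 3 was low and Bhlhe22 replicate 2 high, the lowest Bhlhe22 value (962.2 CPM) lay just above the highest vector value (961.9 CPM), and the log2 fold change of 0.59 (SE 0.26) had an edgeR adjusted p of 0.16. Leaving out vector replicate 3 gave 0.39 and leaving out Bhlhe22 replicate 2 gave 0.33. Hsp90b1, the ER Hsp90 known as GRP94, had 865, 887 and 859 CPM in vector cells and 956, 823 and 836 CPM in Bhlhe22 cells. The groups overlapped, with a log2 fold change of 0.00 (SE 0.08, edgeR adjusted p = 0.99), and 10.3% of its exon length overlaps 1810014B01Rik on the opposite strand.

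Both nucleotide exchange factors of BiP rose. Sil1, the smaller of them, had 31.3, 31.0 and 42.6 CPM in vector cells and 61.1, 53.7 and 49.1 CPM in Bhlhe22 cells (log2 fold change 0.64 ± 0.15 SE, adjusted p = 0.025 by edgeR). Its groups did not overlap, but leaving out vector replicate 1, vector replicate 2 or Bhlhe22 replicate 2 ended the call (adjusted p = 0.098, 0.097 and 0.066). Hyou1, a large Hsp70-like exchange factor, had 158, 183 and 196 CPM against 210, 249 and 242 CPM, with no overlap (means 179 ± 19.5 and 234 ± 21.1, SD, n = 3; log2 fold change 0.38, edgeR adjusted p = 0.044). Without Bhlhe22 replicate 1 Hyou1 was still called, but with any other library left out the adjusted p was 0.068 to 0.147. The call was also lost with scaling to library size alone (0.057). Manf, a small BiP cofactor, had a log2 fold change of 0.29, Hspa13, an Hsp70-like ATPase, of 0.23, and Creld2, a secreted ER stress factor, of -0.22, none of them called (edgeR adjusted p from 0.18 to 0.24). In the fit without Bhlhe22 replicate 1 Hspa13 was called higher (0.29, adjusted p = 0.045), Creld2 was called lower (-0.36, adjusted p = 0.0035), and Manf was at 0.11 and not called.

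J-domain proteins hand substrates to BiP, and 1 of the 4 measured rose. Dnajb9 (ERdj4), on chromosome 12 from 44205559 to 44210326 (GRCm38), had 28.6, 30.1 and 27.0 CPM in vector cells and 61.4, 62.6 and 66.3 CPM in Bhlhe22 cells. The groups were far apart, at a 2.22-fold increase (log2 fold change 1.15 ± 0.08 SE, adjusted p = 2.4e-04 by edgeR). Dnajb11, Dnajc3 and the reductase Dnajc10 had log2 fold changes of 0.07, 0.09 and 0.04 and were not called (edgeR adjusted p from 0.37 to 0.74). Sdf2l1 and Sdf2 encode related ER proteins that bind Dnajb11. Sdf2l1 fell from 47.9, 45.3 and 49.3 CPM to 39.9, 30.3 and 28.8 CPM (log2 fold change -0.53 ± 0.13 SE, adjusted p = 0.032 by edgeR). Its groups did not overlap, yet the call stood in the fit without Bhlhe22 replicate 1 (-0.69, adjusted p = 3.5e-04) and in none of the other 5 (0.079 to 0.112). Sdf2 ranged from 26.2 to 32.3 CPM in vector and from 25.9 to 40.9 CPM in Bhlhe22 cells and was not called, and 16.0% of its exon length is shared with Supt6 on the other strand.

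The lectin chaperones and most isomerases, among the most abundant of these genes, were not called. Calr (calreticulin), which binds sugar-bearing clients, had 701, 707 and 712 CPM in vector cells and 702, 604 and 591 CPM in Bhlhe22 cells, and its membrane-bound relative Canx (calnexin) 826, 848 and 810 CPM against 794, 742 and 788 CPM. Bhlhe22 replicate 1 was within the vector range for Calr and just below it for Canx. Of the isomerases, P4hb (protein disulfide isomerase) went from 769 ± 16.2 to 842 ± 17.9 CPM and Pdia3, which works with the lectins, from 632 ± 9.03 to 560 ± 72.6 CPM, without a call (log2 fold changes 0.13 and -0.17, edgeR adjusted p = 0.18 and 0.27). Pdia4 and Pdia6 had log2 fold changes of -0.08 and -0.11 and were not called, and all 3 Bhlhe22 values of Pdia4 lay below the vector values. Without Bhlhe22 replicate 1 Calr (-0.25), Pdia3 (-0.29), Pdia6 (-0.23) and Creld2 (-0.36) were called lower, with edgeR adjusted p from 0.0010 to 0.0091, so that 5 folding genes were lower and 5 higher in that fit. The part that gene length plays in this was not tested.

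Among isomerases 1 passed. Erp44, which retrieves ER proteins from the early Golgi, had 99.1, 103 and 98.1 CPM in vector cells and 125, 119 and 120 CPM in Bhlhe22 cells (log2 fold change 0.28 ± 0.06 SE, adjusted p = 0.020 by edgeR). It was not called without any 1 vector replicate or Bhlhe22 replicate 2 (adjusted p from 0.063 to 0.098). Txndc5, an isomerase with 11.9% of its exon length overlapped by Bmp6 and Gm31834 on the opposite strand, had 145, 142 and 323 CPM in vector cells and 199, 161 and 142 CPM in Bhlhe22 cells. Vector replicate 3 alone was high, and the log2 fold change went from -0.28 to 0.22 without it.

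Many ER chaperone promoters carry the ER stress response element (ERSE), which NF-Y and ATF6 bind, or the shorter ERSE-II, known from Herpud1. ERSE was searched as CCAAT and CCACG with a run of any bases between them, 19 bases in all, and ERSE-II as ATTGG and CCACG with 1 base between them. Both were searched on both strands in RefSeq promoters (GRCm38.p6, 250 bases before to 50 after each gene start), where 35 of the 42 genes were found. Those not matched were Manf, Erlin2, Sil1, Hspa13, Atf6, Derl1 and Hyou1. An exact ERSE was in 9 of the 35 genes and in 0.119% of the 32851 promoters, and 7 of the 9 were folding genes. The genes that hold the sites were mostly not called, as were most of all genes tested. Capitals mark CCAAT and CCACG, and coordinates are GRCm38.
Hspa5, chr2:34772025-34772043, plus strand: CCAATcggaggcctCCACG
Calr, chr8:84847075-84847093, plus strand: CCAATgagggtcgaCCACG
Derl3, chr10:75893242-75893260, minus strand: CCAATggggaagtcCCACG
Hsp90b1, chr10:86705638-86705656, minus strand: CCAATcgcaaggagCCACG
Hsp90b1, chr10:86705533-86705551, plus strand: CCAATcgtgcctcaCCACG
Canx, chr11:50325800-50325818, minus strand: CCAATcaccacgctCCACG
Pdia6, chr12:17266491-17266509, plus strand: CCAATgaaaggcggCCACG
Dnajc3, chr14:118937827-118937845, plus strand: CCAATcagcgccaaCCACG
Creld2, chr15:88819520-88819538, minus strand: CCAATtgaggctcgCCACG
Syvn1, chr19:6046532-6046550, plus strand: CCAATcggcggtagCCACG
The Hspa5 site lies 65 to 47 bases before the RefSeq start and the Syvn1 site 44 to 26. Of the 8 tested genes with an ERSE, 1 rose (Syvn1) and 0 fell, with log2 fold changes from -0.22 to 0.59 and a median of -0.05. Over all genes tested 10.4% were called higher and 9.28% lower. Without Bhlhe22 replicate 1 Syvn1 was higher and Calr, Creld2 and Pdia6 were lower, and with any other library left out none of the 8 was called. Of the 26 tested and matched genes without one, 10 rose and 2 fell, with a median of 0.17. The split was not tested, and the absence of these letters from a window says nothing of what binds elsewhere.

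ERSE-II was in 2 of the 35 genes and 0.0365% of all promoters, and capitals mark ATTGG and CCACG. The Herpud1 site lies upstream of the start and the Dnajb11 site just downstream of it.
Herpud1, chr8:94386377-94386387, plus strand: ATTGGgCCACG
Dnajb11, chr16:22857852-22857862, plus strand: ATTGGcCCACG
Herpud1 rose and Dnajb11 was not called. The XBP1 motif TGACGTGG was in Txndc5, Ube2j1 and Vcp, none of which rose, and in 0.676% of all promoters. The ATF4 motif TGATGNAAT was in 0 of the 35 genes and 0.965% of all promoters. An E-box (CANNTG), the general motif of basic helix-loop-helix factors, was in 60.0% of the 35 genes and 72.3% of all promoters, in 9 of the 11 matched genes that rose and in 11 of the 23 other tested ones.

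Most of the tested genes grouped as ligase and channel proteins of the ER membrane rose. The best known complex of this group, which pulls proteins out of the ER, is built around the ubiquitin ligase HRD1 (Syvn1) and its adaptor SEL1L, with derlins as the channel, HERPUD1 as a scaffold and selenoprotein S (Selenos) as a dock for the ATPase VCP. The erlins, which work apart from that complex with another ligase, were grouped with it here. Of these 9 genes 8 were tested, 6 rose and 0 fell, with a median log2 fold change of 0.65. The upstream sequences of 3 of the higher genes are shown for comparison with the sites above. They end 1 base before the RefSeq start, overlap no annotated exon, and carry capitals where an ERSE-II lies.
Erlin1, chr19:44069786-44070035, minus strand: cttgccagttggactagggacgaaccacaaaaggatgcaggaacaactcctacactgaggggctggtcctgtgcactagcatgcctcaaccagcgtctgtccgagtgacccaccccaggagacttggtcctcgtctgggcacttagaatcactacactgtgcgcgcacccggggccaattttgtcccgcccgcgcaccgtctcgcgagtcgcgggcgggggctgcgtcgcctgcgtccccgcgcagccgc
Sel1l, chr12:91849158-91849407, minus strand: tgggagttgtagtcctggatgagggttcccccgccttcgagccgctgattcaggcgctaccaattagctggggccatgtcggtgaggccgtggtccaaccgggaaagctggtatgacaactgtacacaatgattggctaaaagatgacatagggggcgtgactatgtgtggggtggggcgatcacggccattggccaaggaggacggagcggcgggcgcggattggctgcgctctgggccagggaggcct
Herpud1, chr8:94386179-94386428, plus strand: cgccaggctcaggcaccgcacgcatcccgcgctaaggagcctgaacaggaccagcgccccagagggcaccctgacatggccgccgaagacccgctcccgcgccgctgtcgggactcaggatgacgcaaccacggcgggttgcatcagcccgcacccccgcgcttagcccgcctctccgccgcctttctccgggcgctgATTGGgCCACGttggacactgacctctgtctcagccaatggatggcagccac
Erlin1 and Sel1l hold neither ERSE nor ERSE-II in these 250 bases.

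Erlin1 had the largest increase of the 41 genes. It encodes a membrane protein that, with its paralogue Erlin2, marks IP3 receptors for degradation and takes part in sterol control, and it spans chr19:44034944-44069785 (minus strand). It had 50.0, 53.4 and 47.6 CPM in vector cells and 181, 187 and 174 CPM in Bhlhe22 cells, a 3.59-fold increase with groups far apart (log2 fold change 1.84 ± 0.07 SE, adjusted p = 4.7e-05 by edgeR). Erlin2 had 60.5, 67.1 and 62.9 CPM against 59.0, 64.1 and 70.2 CPM, and its groups overlapped (log2 fold change 0.02, SE 0.09). Per kilobase, Erlin1 was at 7.74 ± 0.449 FPKM and Erlin2 at 9.03 ± 0.486 FPKM in vector cells, while in Bhlhe22 cells Erlin1 was at 27.4 ± 0.849 and Erlin2 at 9.03 ± 0.855 FPKM. The level of Erlin1 relative to its partner was thus below it in vector cells and above it in Bhlhe22 cells.

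Sel1l, at chr12:91806043-91849157 (minus strand), had 229, 171 and 209 CPM in vector cells and 384, 506 and 495 CPM in Bhlhe22 cells. Bhlhe22 replicate 1 was the lowest of its group but above every vector value (2.27-fold, log2 fold change 1.18 ± 0.15 SE, adjusted p = 0.0020 by edgeR). Its partner Syvn1 rose less, from 53.5, 57.0 and 57.7 CPM to 64.4, 71.4 and 73.7 CPM (log2 fold change 0.32 ± 0.08 SE, adjusted p = 0.035 by edgeR). That call was lost in each fit without a library other than Bhlhe22 replicate 1 (adjusted p from 0.093 to 0.146) and with no filter (0.0503).

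Of the channel and its attached proteins, Derl1, Herpud1 and Selenos rose. Derl1 had 196, 189 and 195 CPM in vector cells and 305, 311 and 297 CPM in Bhlhe22 cells (log2 fold change 0.65 ± 0.06 SE, adjusted p = 7.3e-04 by edgeR). Its paralogue Derl2 went from 49.6 ± 2.33 to 56.2 ± 2.40 CPM without passing the test (log2 fold change 0.18, adjusted p = 0.15). Herpud1 had 250, 265 and 233 CPM against 400, 383 and 391 CPM (log2 fold change 0.65 ± 0.07 SE, adjusted p = 0.0014 by edgeR). Both Derl1 and Herpud1 showed no overlap between groups. Selenos had 38.8, 40.4 and 43.7 CPM against 84.8, 67.4 and 62.9 CPM, with Bhlhe22 replicate 1 the highest (log2 fold change 0.81 ± 0.13 SE, adjusted p = 0.0053 by edgeR).

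**Figure D3:**
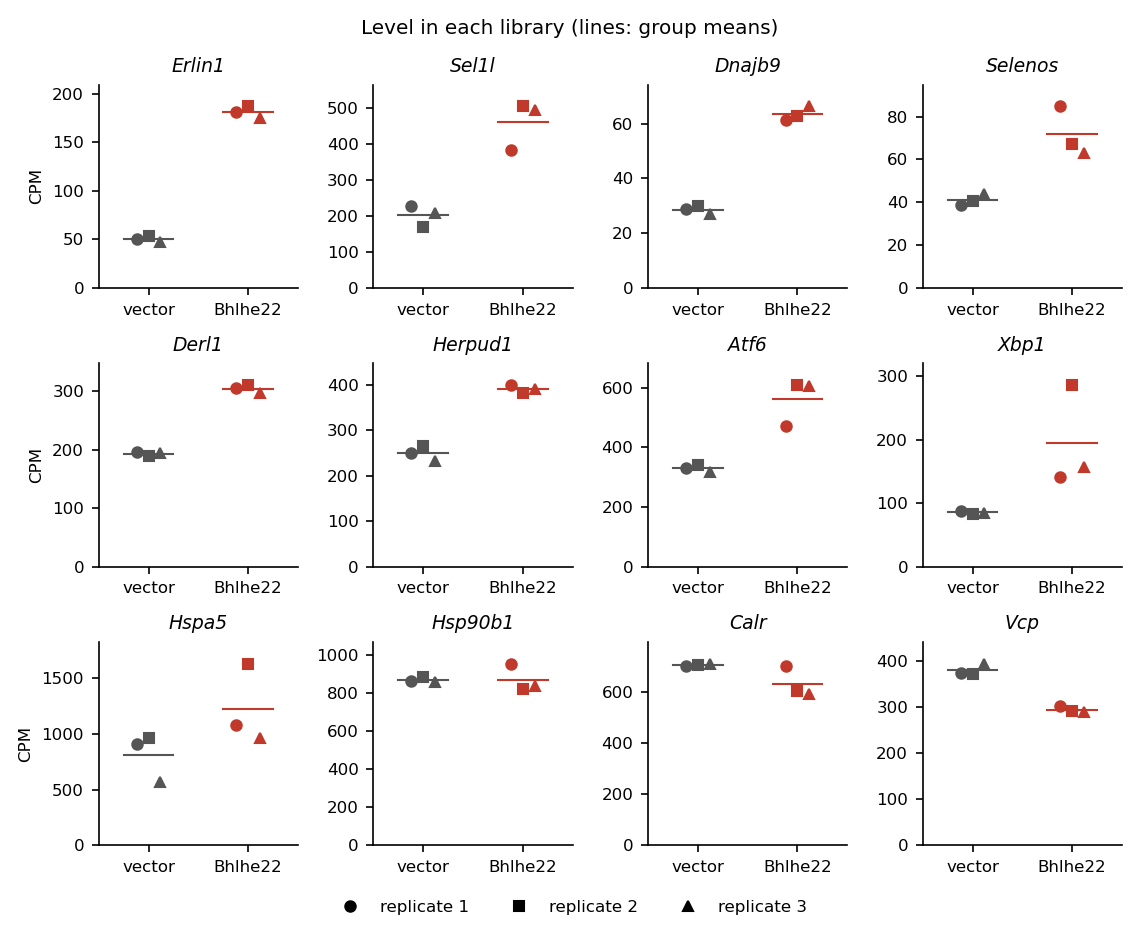
CPM in each library for 12 of the genes, each panel from 0, with 1 marker per replicate and lines at the group means. Erlin1, Sel1l, Dnajb9, Selenos, Derl1, Herpud1, Atf6 and Xbp1 have no Bhlhe22 value within the vector range, Hspa5 barely clears it, Vcp lies below it, and Hsp90b1 and Calr overlap.

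Fewer genes of the steps before and after the channel were called. EDEM proteins trim mannose from misfolded glycoproteins and OS9 reads the trimmed sugar. Os9 had 67.0, 63.3 and 70.0 CPM in vector cells and 105, 90.8 and 83.3 CPM in Bhlhe22 cells, with no overlap (log2 fold change 0.48 ± 0.10 SE, adjusted p = 0.017 by edgeR), and lost its call without any 1 vector replicate (0.055 to 0.079). Edem1, Edem2 and Edem3 had log2 fold changes of 0.06, 0.16 and 0.04 and were not called. The ubiquitin-conjugating enzymes Ube2j1 (0.01) and Ube2j2 (0.28) were not called either. Edem1 (0.16, adjusted p = 0.044) and Ube2j2 (0.20, adjusted p = 0.049) were called higher without Bhlhe22 replicate 1. Vcp, the ATPase that draws ubiquitinated proteins into the cytosol, fell from 376, 372 and 396 CPM to 302, 291 and 291 CPM, a log2 fold change of -0.37 (SE 0.06, edgeR adjusted p = 0.0076) and no overlap, and 7.26% of its exon length overlaps 1700022I11Rik on the opposite strand.

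Genes of both the ATF6 and the IRE1 branch rose. ATF6 is cut in the Golgi to free a transcription factor, and IRE1 (Ern1) splices Xbp1 mRNA into the form that encodes the active factor. Atf6 had 330, 341 and 318 CPM in vector cells and 470, 609 and 605 CPM in Bhlhe22 cells (log2 fold change 0.77 ± 0.11 SE, adjusted p = 0.0038 by edgeR). Its relative Atf6b had 131, 138 and 142 CPM against 170, 164 and 163 CPM (log2 fold change 0.27 ± 0.07 SE, adjusted p = 0.028 by edgeR), a call kept without Bhlhe22 replicate 1 and lost without any other library (0.057 to 0.129). Both had groups that did not overlap.

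Ern1 had 150, 164 and 154 CPM in vector cells and 177, 259 and 277 CPM in Bhlhe22 cells (log2 fold change 0.61 ± 0.16 SE, adjusted p = 0.037 by edgeR), with Bhlhe22 replicate 1 closest to the vector values. It was called without Bhlhe22 replicate 1 (0.77) and in none of the other 5 fits (adjusted p from 0.086 to 0.131). Xbp1 had 87.5, 83.5 and 85.0 CPM against 141, 286 and 157 CPM, a 2.28-fold increase (log2 fold change 1.19 ± 0.26 SE, adjusted p = 0.020 by edgeR). Bhlhe22 replicate 2, the library with the highest Hspa5, was well above the other Bhlhe22 values, and without it the log2 fold change was 0.81 (adjusted p = 0.0043). The call was lost without any 1 vector replicate (0.072 to 0.075) and with no filter (0.054). Gene counts do not separate spliced from unspliced Xbp1 mRNA. Eif2ak3 (PERK), which phosphorylates eIF2α, had 22.3, 22.6 and 22.9 CPM against 18.1, 25.4 and 27.3 CPM, and its groups overlapped (log2 fold change 0.07 ± 0.15 SE, adjusted p = 0.81 by edgeR).

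The genes that changed most were not the most abundant by deposited FPKM. FPKM rests on the implied lengths, which can exceed the annotated exons by amounts that differ between genes. Herpud1 had 4.97 kb against 2333 bases of exons and Pdia4 2.75 kb against 2399 bases. The order of genes by FPKM may thus differ from their order per exon base. The 8 genes with the highest vector level were all folding genes, from 86.0 FPKM (Pdia4) to 205 FPKM (P4hb), and none of them was called. The genes at least 2-fold higher, Erlin1, Sel1l, Dnajb9 and Xbp1, were between 7.74 and 15.9 FPKM in vector cells. Genes of like FPKM moved apart, as Sdf2l1 (43.2 FPKM, log2 fold change -0.53) and Herpud1 (50.5 FPKM, 0.65) did. Their levels were alike in FPKM only, with vector means of 47.5 CPM for Sdf2l1 and 249 CPM for Herpud1. Derl3 was lowest at 0.108 FPKM, then Eif2ak3 at 2.86 and Syvn1 at 4.47 FPKM.

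**Figure D4:**
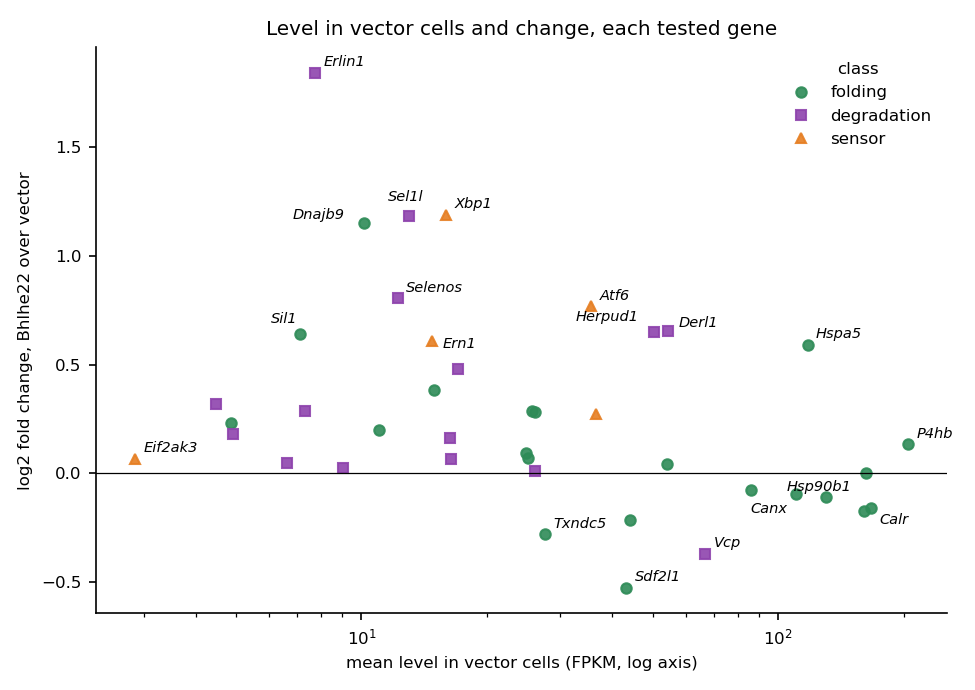
Mean FPKM in vector cells (log axis) against the log2 fold change of Bhlhe22 over vector cells for the 41 tested genes, with a marker per class. The folding genes from 86.0 FPKM up lie between -0.17 and 0.59, and the genes above a log2 fold change of 1 lie at 7.74 to 15.9 FPKM.

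Other genes of the ER and of the stress response were read from lists of pathway members. In the list named PERK-ATF4-CHOP branch 15 of 20 genes rose (10.4% of all genes) and 0 fell, with a median log2 fold change of 0.50. Neither Atf4 itself (0.21, edgeR adjusted p = 0.73) nor Eif2ak3 (0.07, edgeR adjusted p = 0.81) was called. Many genes of this list encode proteins outside the ER, and the part of PERK in their change was not tested. Ppp1r15a, which encodes the eIF2α phosphatase subunit GADD34, averaged 45.5 ± 16.4 CPM in vector and 290 ± 47.7 CPM in Bhlhe22 cells (log2 fold change 2.67 ± 0.26 SE, adjusted p = 8.9e-04 by edgeR). The transcription factor Atf3 (1.69), Ddit3, which encodes CHOP (1.29), and Slc3a2 (0.72), an amino acid transporter subunit, also rose. Of 22 further ER-associated degradation genes 6 rose and 0 fell, with a median of 0.16. They include the rhomboid protease Rhbdd1, from 84.5 ± 0.789 to 166 ± 10.8 CPM (0.97), the ligase Rnf185 (0.94), and Aup1 (0.48), all in log2 fold change. Without Bhlhe22 replicate 1 the number was 10, and without any other library 4.

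Genes that feed or serve the folding machinery had smaller shares of higher genes than the lists above, 15.8% to 17.6% per list. The share over all genes was 10.4%. Of 19 other ER oxidases and isomerases 3 rose and 0 fell, with a median log2 fold change of 0.03. They were Ero1l, the oxidase that recharges the isomerases, from 289 ± 6.93 to 802 ± 97.0 CPM (1.47, edgeR adjusted p = 2.1e-04), and the thioredoxin-like Tmx3 (0.73) and Txndc11 (0.64). In N-glycan attachment and trimming 3 of 17 rose and 1 fell, with a median of 0.09. The oligosaccharyltransferase subunits Stt3a (0.39) and Ostc (0.51) and the lectin Erlec1 (0.30) rose, and Dad1 (-0.33), a further subunit, fell. In translocation 3 of 18 rose and 0 fell, with a median of 0.24. The 3 were the channel subunit Sec61a1 (0.68), the receptor subunit Srprb (0.62) and the channel partner Sec63 (0.29). The log2 fold change was above 0 in 17 of these 18 (51.3% of all genes). In 9 of the 18 all Bhlhe22 values lay above the vector values (20.8% of all genes). Among 12 sensor partners 2 rose and 0 fell, Wfs1, a membrane protein of the ER, at 1.33, and Creb3l2, a membrane-bound transcription factor, at 0.52. Without Bhlhe22 replicate 1 the higher genes numbered 5 in N-glycan attachment, 7 in translocation and 3 among sensor partners. Without any 1 vector replicate they numbered 1, 2 and 1, and without Bhlhe22 replicate 2 or 3 the sensor partners also had 1. The proteases that cut ATF6, Mbtps1 and Mbtps2, had log2 fold changes of 0.02 and 0.13 and were not called.

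**Figure D5:**
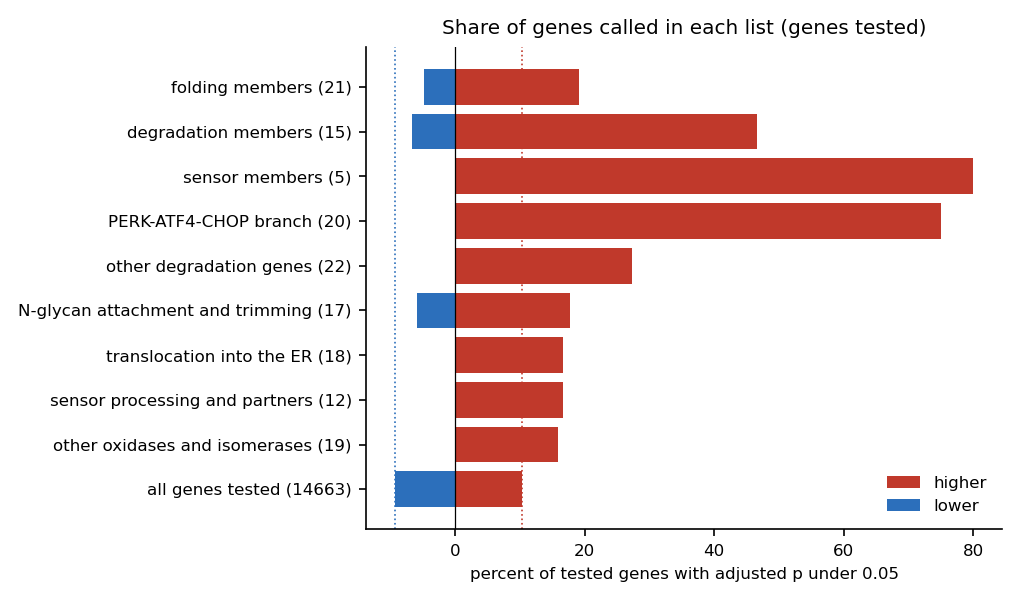
Percent of tested genes that rose (right) or fell (left) at an edgeR adjusted p under 0.05 in each list, with the number tested in brackets and dotted lines at the values for all genes (10.4% and 9.28%). The sensors and the PERK-ATF4-CHOP branch have the largest shares of higher genes, and the folding genes stand at 19.0% higher and 4.76% lower.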

How the data were processed

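RNA-seq counts of 6 RM-1 libraries were analysed, 3 per group. The authors deposited raw counts per gene and FPKM values made from the same libraries. Per the submitters' processing notes CASAVA 1.8, HISAT2 2.1.0, StringTie 1.3.4b and edgeR were used with GRCm38. What each tool did, the annotation release and strandedness are stated in neither notes nor labels, so overlapping genes on opposite strands may share reads.

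Bhlhe22 cells were compared with vector cells over the whole table with edgeR 4.0.16 (R 4.3.3): TMM scaling, filterByExpr (minimum count 10, total 15), robust quasi-likelihood fits, Benjamini-Hochberg adjustment at 0.05 and no covariate. The fit was tested on simulated data. SE is the log2 fold change divided by the square root of the F statistic. Gene positions in the table matched GENCODE M21 for all 42 genes, and exon overlaps came from it. Promoters came from RefSeq. The 42 genes and the lists were chosen with earlier results of these data known. All 42 genes could be named, and of each other list up to 4 called genes in each direction with the smallest adjusted p; Atf4, Mbtps1 and Mbtps2 were named after their values were seen, and some genes of the lists are not reported here. Alternatives were RLE and library size scaling, DESeq2 1.42.0, limma-voom and limma on log2(FPKM + 1) (limma 3.58.1), 2 other filters, a replicate block and leaving out each library. Alternatives for the lists were added after seeing the data. Plots used Python 3.11.15 and matplotlib 3.10.9.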

Additional observations from a re-analysis of the deposited data

How the results depend on the processing

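Over the alternatives that kept all 6 libraries (other scaling, test, filter, FPKM or a replicate block), the number of higher genes stayed within 1.5 times the main 15. Leaving out 1 library gave 7 to 18 higher and 1 to 6 lower genes, with 1 to 5 folding genes higher, 0 to 5 folding genes lower, 6 to 13 degradation and sensor genes higher and 1 lower in each fit. For the other lists the number of higher genes was 11 to 17 in the PERK-ATF4-CHOP branch, 3 in each of these fits among oxidases and isomerases (4 with DESeq2), 1 to 5 in N-glycan attachment, 2 to 7 in translocation (6 with DESeq2), 4 to 10 among further degradation genes and 1 to 3 among sensor partners. The largest counts came without Bhlhe22 replicate 1, where 2345 genes rose and 2337 fell over the whole table, against 1520 and 1361 with all libraries. The cause was not tested.

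With the replicate block, 14 of the 17 calls stood, Erp44 (adjusted p = 0.070), Syvn1 (0.066) and Atf6b (0.083) were lost and Hspa5 was gained (0.59, adjusted p = 0.030). Same-numbered libraries had residual correlations of 0.053, 0.023 and 0.027, and the other pairs -0.12 to 0.098. The residuals were centred within groups of 3 libraries, so these values cannot tell whether the numbers mark shared batches. limma on log2(FPKM + 1) lost Hyou1 (adjusted p = 0.066), Syvn1 (0.076) and Ern1 (0.070).

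Signs turned for 7 genes, all of them not called with all libraries. Hsp90b1 had -0.0037 with RLE scaling, -0.021 with library size scaling, -0.0038 with DESeq2, -0.0023 with limma-voom, -0.0012 with the 1 CPM filter, -0.023 on FPKM, -0.0014 with the replicate block and -0.077 to 0.044 without 1 library. Ube2j1 had -0.013 with library size scaling and -0.012 on FPKM, and -0.020 to 0.039 without 1 library, and Erlin2 -0.0026 on FPKM and -0.044 to 0.074. Without 1 library the ranges were -0.010 to 0.12 for Dnajb11, -0.49 to 0.22 for Txndc5, -0.025 to 0.16 for Edem3 and -0.052 to 0.22 for Eif2ak3. Other scalings moved the median of all genes by less than 0.1. Depth limited Derl3, which had too few counts to test.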

Other observations

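Ranked by FPKM among the 42 genes, Erlin1 moved from position 34 in vector cells to 21 in Bhlhe22 cells, Sel1l from 29 to 20, Xbp1 from 26 to 16 and Atf6 from 16 to 11, while P4hb held position 1 and Hsp90b1 position 3 in both. Vcp went from 9 to 13 and Sdf2l1 from 14 to 19. These ranks rest on the deposited FPKM and its implied gene lengths, describe levels and carry no test.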
